A study of Mus musculus with 24 samples.

Results

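The comparison described here is between *Tfap2b*-/- and *Tfap2b*+/+ embryos in those diencephalon/midbrain/hindbrain (DMH) pieces that contained caudal *Hox* transcripts. A DMH library was a member when *Hoxa5*, *Hoxb5*, *Hoxb8* and *Hoxc4* together had more than 10 CPM (counts scaled to a common total of fragments counted on genes). This rule took 8 of the 12 DMH libraries, and 8 of all 24 libraries, of which 3 were mutant (males 1 and 3, female 3) and 5 were control (males 1, 2 and 3, females 2 and 3). Members were thus chosen by their measured *Hox* levels, without use of genotype. The lowest member, female control 2, had 175 CPM over the 4 genes and the highest 333 CPM, and the nearest library outside, male mutant 2, had 0.0923 CPM. The 4 libraries below the threshold were male mutant 2, female mutants 1 and 2, and female control 1.

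All embryos were taken at E14.5, and each library holds 1 region of 1 embryo. The mutant allele is constitutive, with a PGK-neo cassette inserted into an exon of *Tfap2b*, and the study bred heterozygous mice to obtain mutants and wild-type littermates. The study also sequenced the secondary prosencephalon (SP) of the same embryos. Polyadenylated RNA was sequenced as read pairs from stranded libraries. Between 27.385 and 66.844 M (mega) fragments per library were counted on genes in the 8 libraries (median 32.953 M), and a floor of 3 counts corresponds to 0.0449 to 0.110 CPM, which covers counting error only. In bulk pieces such as these, fewer cells of a type and less RNA per cell cannot be told apart.

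*Tfap2b* encodes AP-2β, a transcription factor that binds GC-rich DNA as a dimer and is made in dorsal midbrain, hindbrain, kidney and neural crest derivatives. In the hindbrain, noradrenergic neurons of the locus coeruleus and of the medullary groups make noradrenaline in steps. Tyrosine hydroxylase (*Th*) and aromatic amino acid decarboxylase (*Ddc*) make dopamine, VMAT2 (*Slc18a2*) loads it into vesicles, dopamine beta-hydroxylase (*Dbh*) turns it into noradrenaline, and the noradrenaline transporter (*Slc6a2*) takes the released transmitter back up. *Hox* genes are expressed in nested domains from the hindbrain to the tail, so that genes of higher paralogue number start further back.

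Among the 8 libraries, 2 stood apart. The DMH library of female mutant 3 contained transcripts of other tissues, with 635 CPM summed over 7 skeletal muscle genes, 1740 CPM over 5 cartilage genes and 3210 CPM over 10 genes of meninges and mesenchyme. The other 7 libraries had 5.39 to 7.67, 64.0 to 88.2 and 903 to 1220 CPM of these. It also had less of 10 choroid plexus genes, 217 CPM against 472 to 707 CPM, and the first principal component, 47.06% of the variance of the 500 most variable genes, separated it from the others. Female control 2 contained Y-linked transcripts and next to no *Xist*, against its label, which was kept, and it had the lowest sum over the 4 *Hox* genes of the rule. The counts of calls, the list medians and the folds of the genes that the results turn on are therefore given with and without female mutant 3, and the other folds are those of the 8 libraries. Without it both mutants are male. Since labelled sex was a term of the fit, the fold changes then rest on 2 mutants and 3 controls labelled male. The controls labelled female, female control 2 among them, add only to the estimate of the spread. Of the other markers, 5 endothelial genes summed to 250 to 279 CPM in controls and 253 to 268 CPM in mutants, 6 microglial genes to 80.9 to 88.2 and 77.7 to 85.4 CPM, 7 blood genes to 735 to 1150 and 761 to 1070 CPM, 5 telencephalic genes to 64.7 to 125 and 72.6 to 85.2 CPM, and 5 pan-neuronal genes to 5320 to 5800 and 5120 to 5640 CPM. The 5 eye genes summed to 1.02 to 1.94 CPM in controls and 0.986 to 1.82 CPM in mutants. The 4 surface ectoderm genes summed to 0.107 to 0.446 CPM in controls and 0.264 to 0.426 CPM in the male mutants, while female mutant 3, at 1.20 CPM, was above every control.

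The *Hox* genes describe the caudal extent of the pieces and, since 4 of them are the rule, are given as a description. *Hoxa5* had 59.9 to 96.7 CPM in the controls and 81.8 to 86.2 CPM in the mutants, and *Hoxb5* had 63.0 to 79.8 and 68.5 to 77.3 CPM. *Hoxc4* had 28.8 to 44.6 CPM in the controls and 33.5 to 37.0 CPM in the mutants, so that in these 3 genes the mutants lay inside the range of the controls. *Hoxb8* had 112, 105, 68.3 and 103 CPM in male controls 1, 2 and 3 and female control 3, 9.98 CPM in female control 2, and 64.7, 92.6 and 76.7 CPM in male mutants 1 and 3 and female mutant 3. The mutants thus lay inside the range of the controls, and male mutant 1 was below 4 of the 5. The 15 genes of paralogue groups 1 to 5 summed to 325 to 398 CPM in controls and 353 to 379 CPM in mutants. The 8 genes of groups 6 to 8 varied more, from 27.2 CPM in female control 2 to 188 CPM in male control 1, with 101, 149 and 123 CPM in the mutants. The 16 genes of groups 9 to 13 had 36.2 CPM in male control 1, 0.302 CPM in female control 2 and 3.15 to 16.9 CPM in the mutants. The mutants lay within the range of the controls in all 3 sets, but in groups 6 to 8 and 9 to 13 male mutant 1 was below 4 of the 5 controls and above female control 2 only.

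**Figure D1:**
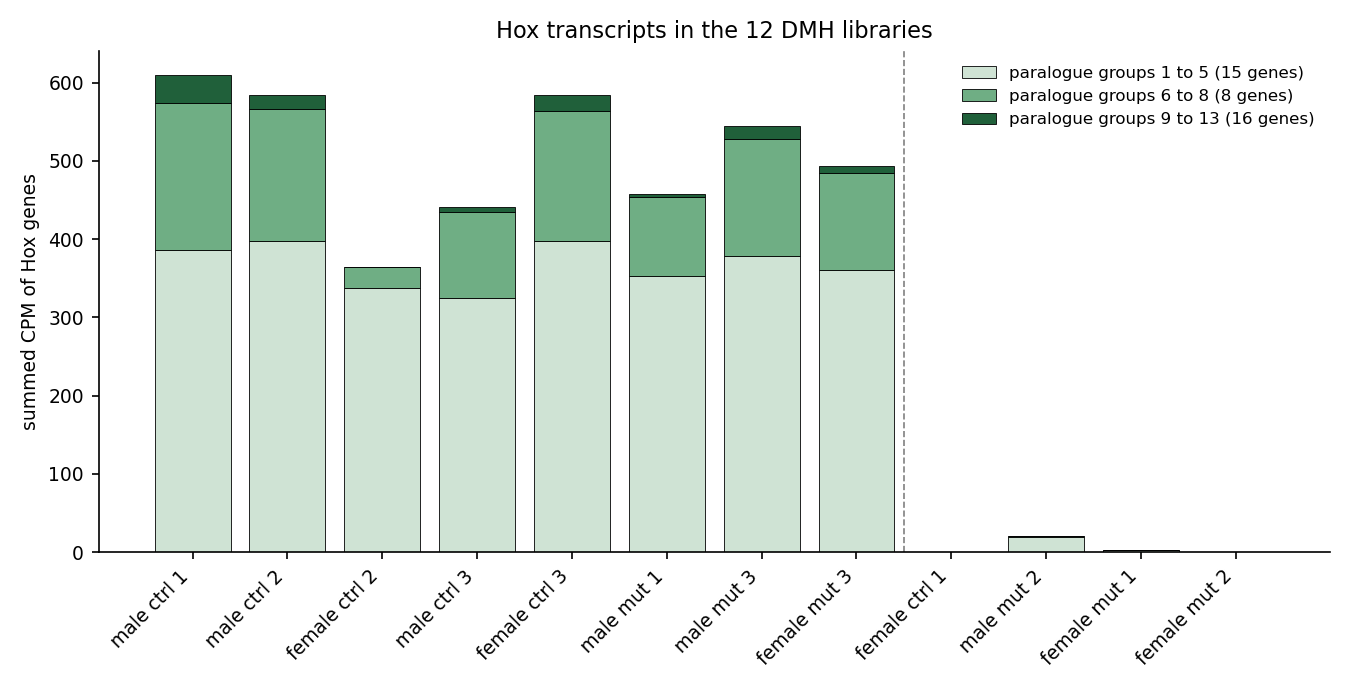
Summed CPM of the *Hox* genes in the 12 DMH libraries, stacked by paralogue group, with the 8 libraries of the comparison left of the dashed line and the 4 below the threshold right of it. Groups 1 to 5 reach 325 to 398 CPM in all 8 libraries, female control 2 has the smallest share of groups 6 to 13 among these 8, and male mutant 2 has 19.8 CPM of groups 1 to 5.

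With thresholds of 0.2 on the FDR and 0.5 on the size of the log2 fold change, 3 of 17359 genes tested (0.0173%) were downregulated in the mutants and 0 were upregulated (edgeR's quasi-likelihood test). The 3 genes were *Tfap2b* itself and 2 genes of noradrenergic neurons, *Dbh* and *Slc6a2*. At an unadjusted p under 0.05 there were 440 genes (2.53%), 130 lower (0.749%) and 310 higher (1.79%). Every mutant lay below every control in 85 genes (0.49%) and above every control in 195 genes (1.12%). Without female mutant 3, 4 of 17575 genes were downregulated (0.0228%), the 3 above and *Hjurp*, and 0 were upregulated, while 281 genes had an unadjusted p under 0.05 (1.6%), 158 lower (0.899%) and 123 higher (0.7%). Without female control 2, 5 genes were downregulated and 1 was upregulated. The calls depended on the test: edgeR's likelihood ratio test called 8 genes lower and 4 higher in the 8 libraries, and DESeq2 called 9 lower and 1 higher. The median log2 fold change of all genes tested was 0.00 with and without female mutant 3.

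The targeted gene, *Tfap2b* (ENSMUSG00000025927.13), occupies 19208914 to 19238576 on the forward strand of chromosome 1 in GRCm38. It had 434.9, 434.6 and 330.7 CPM in male controls 1, 2 and 3, 281.2 and 400.2 CPM in female controls 2 and 3, 54.1 and 51.1 CPM in male mutants 1 and 3, and 51.7 CPM in female mutant 3. The groups were far apart, and the mutants differed from each other much less than the controls did. Controls averaged 376 ± 68.1 CPM (SD, n = 5) and mutants 52.3 ± 1.59 CPM (SD, n = 3), which is 13.9% of the controls. Its log2 fold change was −2.86 (95% CI −3.23 to −2.49, edgeR adjusted p = 0.00141), and −2.95 without female mutant 3 (edgeR adjusted p = 0.0553). The 4 libraries below the *Hox* threshold had 383.9 CPM in female control 1 and 50.4 to 56.6 CPM in the 3 mutants, and a difference of the *Tfap2b* effect between DMH pieces above and below the threshold, which rests on the single control below it, was not detected (log2 difference 0.03, 95% CI −0.49 to 0.56, edgeR adjusted p = 1). Gene counts do not tell which part of the transcript the remaining reads come from.

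*Dbh* (ENSMUSG00000000889.8, chromosome 2, 27165233 to 27183200, forward strand) showed the smallest p of all genes. It had 3.30, 3.26 and 3.25 CPM in male controls 1, 2 and 3 and 3.24 and 3.28 CPM in female controls 2 and 3. Male mutants 1 and 3 had 0.442 and 0.495 CPM, and female mutant 3 had 0.410 CPM. Every mutant was far below every control, and a residual level well above the floor was left in each of the 3. These values rest on 93 to 153 counts in the controls and 15 to 29 in the mutants. The controls varied by 0.819% between libraries, less than the 9.57% that counting error alone would give at these counts. The mutants varied by 9.66%, also less than the 21.5% of counting error. The interval and p that follow rest on this small spread, so they overstate the precision. Controls averaged 3.27 ± 0.0268 CPM (SD, n = 5) and mutants 0.449 ± 0.0434 CPM (SD, n = 3), a residual of 13.7%. Its log2 fold change was −2.89 (95% CI −3.22 to −2.56, edgeR adjusted p = 4.47e-05), and −2.84 without female mutant 3 (edgeR adjusted p = 0.000142). 

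*Slc6a2* (ENSMUSG00000055368.14, chromosome 8, 92960079 to 93001667, forward strand) had 8.35, 9.65 and 7.41 CPM in male controls 1, 2 and 3, 8.38 and 8.68 CPM in female controls 2 and 3, 2.31 and 2.08 CPM in male mutants 1 and 3, and 2.28 CPM in female mutant 3. Here too the groups were well separated, with a larger residual level than for *Dbh*. Controls averaged 8.49 ± 0.802 CPM (SD, n = 5) and mutants 2.22 ± 0.125 CPM (SD, n = 3), a residual of 26.2%. Its log2 fold change was −1.93 (95% CI −2.19 to −1.68, edgeR adjusted p = 9.49e-05), and −1.95 without female mutant 3 (edgeR adjusted p = 0.000234).

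None of the other 11 noradrenergic genes passed the test. Of the 13 genes of the list, all passed the filter on low counts, 2 were downregulated (all genes tested: 0.0173%) and 0 were upregulated, and the list's median log2 fold change was −0.17 (−0.11 without female mutant 3) against 0.00 over all genes tested. *Phox2a*, a transcription factor of noradrenergic identity, had 2.10, 2.601, 1.59, 2.39 and 1.88 CPM in male controls 1, 2 and 3 and female controls 2 and 3, and 1.66, 1.88 and 1.64 CPM in male mutants 1 and 3 and female mutant 3. The mutants were in the lower part of the controls' range, and the interval of the difference reached from −0.70 to 0.10 on the log2 scale (log2 fold change −0.30, edgeR adjusted p = 1, and −0.26 without female mutant 3). *Th* had 8.56, 7.74, 8.555, 9.07 and 10.7 CPM in these controls and 7.67, 10.01 and 7.68 CPM in the mutants (log2 fold change −0.09, 95% CI −0.37 to 0.20, edgeR adjusted p = 1), and its fold was 0.06 without female mutant 3. It is also the enzyme of midbrain dopamine neurons, which the DMH contains. The vesicular transporter *Slc18a2* (−0.27), the cofactor enzyme *Gch1* (−0.24), the transcription factors *Tlx3* (−0.23) and *Insm1* (−0.17), and *Maoa* (−0.05), *Cyb561* (−0.05), *Ddc* (0.07) and *Gal* (0.07) had log2 fold changes that did not pass the test. Intervals of the fold for *Th*, *Ddc*, *Maoa* and *Cyb561* lay inside the threshold of 0.5 in both directions, and those of *Slc18a2*, *Gch1*, *Phox2a*, *Tlx3*, *Insm1* and *Gal* did not.

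**Figure D2:**
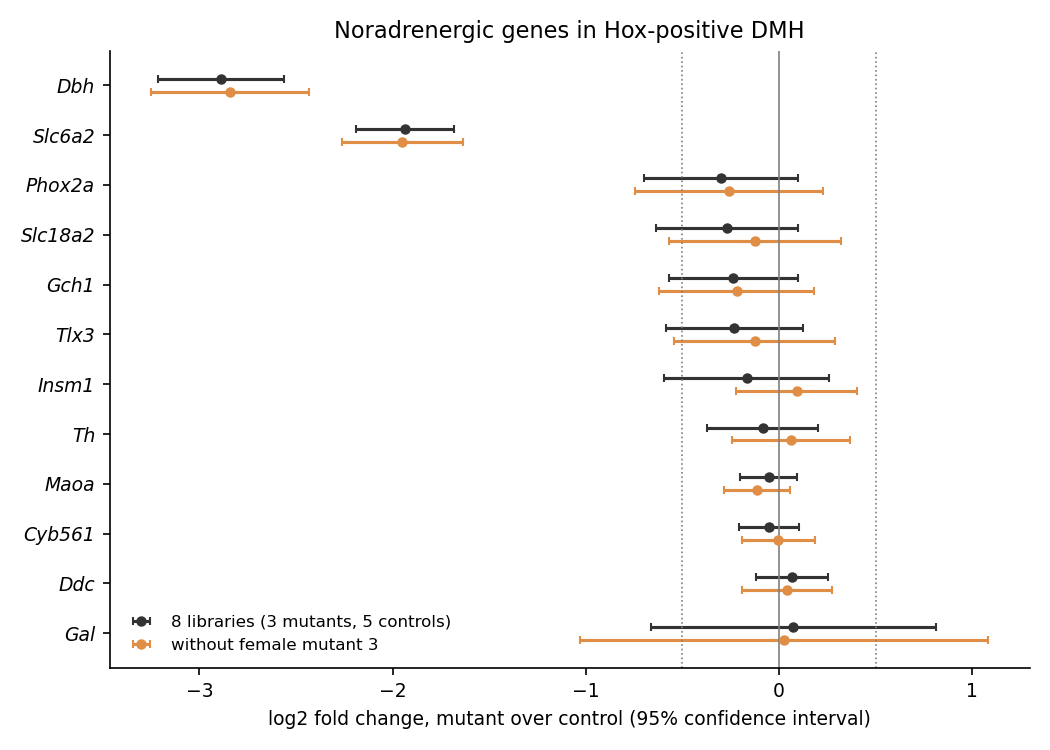
Log2 fold changes (mutant over control, points) with 95% confidence intervals (bars) for noradrenergic genes, in the 8 libraries (black) and without female mutant 3 (orange). *Dbh* (−2.89) and *Slc6a2* (−1.93) lie left of the dotted threshold line in both sets, and the intervals of the other genes shown cross 0.

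Sympathetic neurons and chromaffin cells outside the brain also express *Dbh* and *Slc6a2*. Their transcription factor *Hand1* had 0 counts in all 8 libraries and *Hand2* had at most 0.0658 CPM in controls and 0.0305 CPM in mutants. Summed over 10 genes of peripheral ganglia and neural crest, among them the glial gene *Sox10* and the sensory neuron gene *Scn10a*, controls had 84.5 to 148 CPM and mutants 113 to 133 CPM, and 0 of the 8 members that could be tested passed.

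The control below the *Hox* threshold had less of these 2 genes than any of the 5 controls above it. *Dbh* had 1.13 CPM in female control 1, 0.218 CPM in male mutant 2 and 0 counts in female mutants 1 and 2. *Slc6a2* had 2.99 CPM in female control 1 and 2.62, 1.72 and 0.491 CPM in male mutant 2 and female mutants 1 and 2. For *Slc6a2* this control was nearer to the mutants than to the controls of the class above, and male mutant 2 came close to it. With 1 control the class gives no spread among its controls. The genotype effect was not shown to differ between the classes for any of 16802 genes tested with edgeR (0 passed, 342 or 2.04% at an unadjusted p under 0.05), among them *Dbh* (log2 difference 0.95, 95% CI −0.72 to 2.63, edgeR adjusted p = 1) and *Slc6a2* (−0.94, 95% CI −2.30 to 0.41, edgeR adjusted p = 1). When all 12 DMH libraries were fitted together without regard to *Hox* levels, the fold of *Dbh* was −3.36 with an SE of 0.49 (edgeR adjusted p = 0.131), against an SE of 0.15 in the 8 libraries. That SE of 0.15 rests on a spread of *Dbh* below counting error and is too small. For *Slc6a2* the fold was −1.995 with an SE of 0.32 (edgeR adjusted p = 0.156), against an SE of 0.11. With the *Hox* class as a term in the fit of 12 libraries, *Slc6a2* was no longer called (−1.73, edgeR adjusted p = 0.286), the only one of 24 alternatives in which it was lost.

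**Figure D3:**
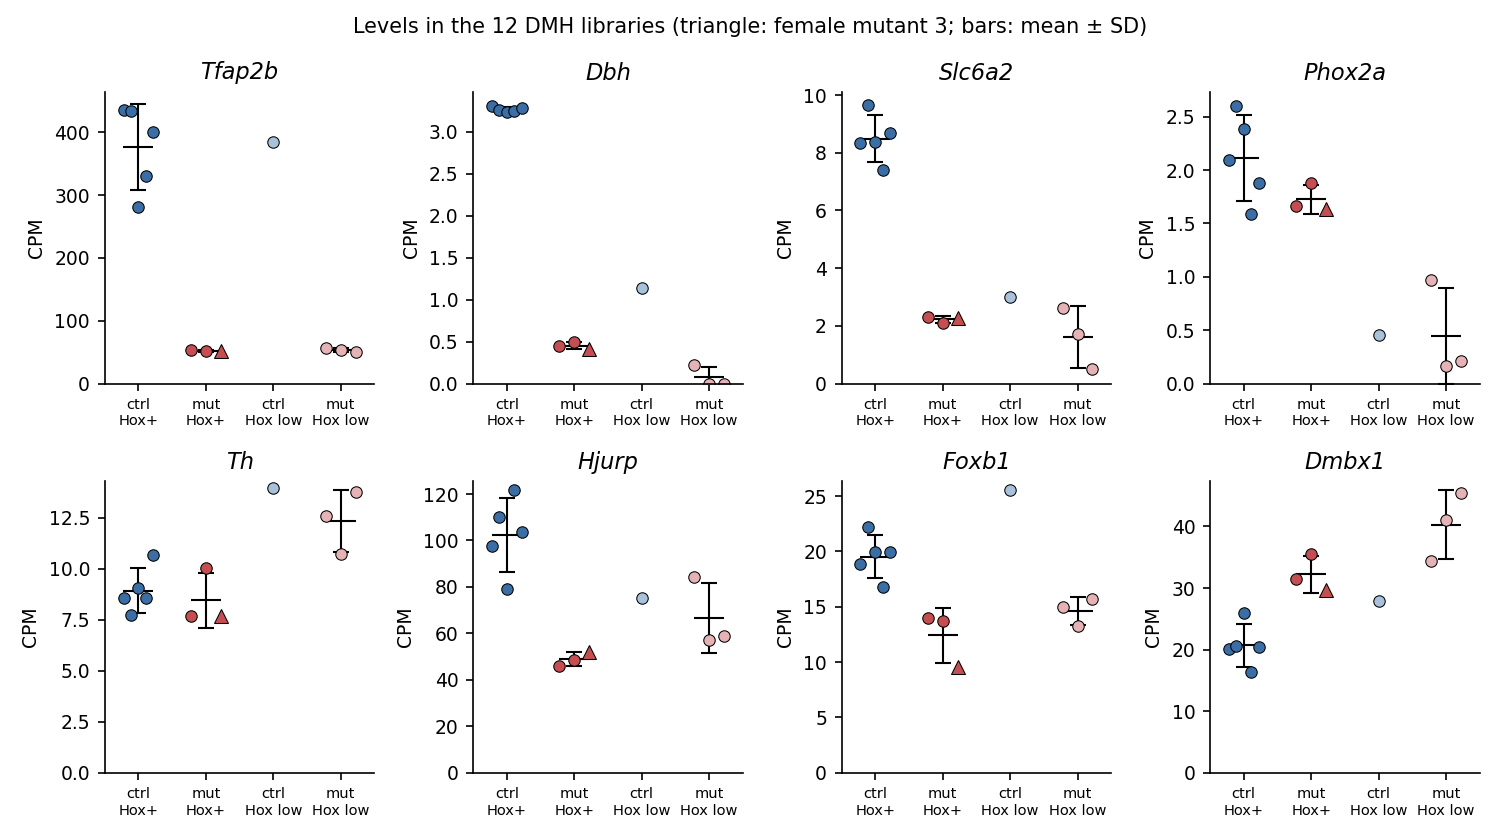
CPM of 8 genes in each of the 12 DMH libraries, by genotype and *Hox* class (Hox+ above and Hox low below the threshold). Points are libraries, the triangle is female mutant 3 and bars are mean ± SD where there is more than 1 library. *Tfap2b*, *Dbh* and *Slc6a2* separate the *Hox*-positive groups, *Phox2a* and *Th* overlap, and *Foxb1* and *Dmbx1* do not.

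In the SP of the same 8 embryos, *Dbh* had at most 1 count and *Slc6a2* at most 3 counts in each library, so neither gene could be tested there. *Tfap2b* had 3.48 to 4.19 CPM in SP controls and 2.75 to 4.72 CPM in SP mutants, a difference inside the spread between embryos (log2 fold change −0.17, edgeR adjusted p = 0.827). In SP 0 of 16945 genes passed the thresholds with edgeR's quasi-likelihood test, 917 had an unadjusted p under 0.05 (5.41%), and the likelihood ratio test called 61. The count rose to 1305 without male mutant 3 and to 428 with no filter on low counts. The difference between the DMH and SP effects was tested with the embryo as a block, and 4 of 18051 genes passed (0.0222%), 2 lower (0.0111%) and 2 higher (0.0111%) in the DMH relative to SP. One of them was *Tfap2b*, which fell in the DMH relative to SP (log2 difference −2.70, edgeR adjusted p = 0.00341). The number of genes with a region difference rested on single embryos, rising to 327 without male mutant 1 and to 139 without male mutant 3.

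The AP-2 family is otherwise represented by *Tfap2a*, the closest relative in the hindbrain and neural crest, and *Tfap2d*, a midbrain factor. *Tfap2a* had 28.6 to 48.9 CPM in controls and 34.0 to 37.5 CPM in mutants (log2 fold change −0.06), and *Tfap2d* had 21.8 to 30.3 and 27.6 to 29.7 CPM (0.05), so neither moved beyond the spread. Of the 10 genes of AP-2 factors and partners, 1 was downregulated (over all genes tested, 0.0173%), the targeted *Tfap2b* itself, and 0 were upregulated, with a median of −0.07 (0.01 without female mutant 3). The repressive partner *Kctd15* was at 56.5 to 64.3 CPM in mutants and 62.5 to 73.2 CPM in controls (−0.19, unadjusted p = 0.0162, edgeR adjusted p = 1), and without female mutant 3 its fold was −0.13 (unadjusted p = 0.11). *Tfap2c* was at 3.095 CPM in female mutant 3 and at most 0.934 CPM in the other 7 libraries, and its fold was 1.08 with and −0.66 without that library.

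The transmitter genes of inhibitory neurons were not shown to differ between the genotypes. *Gad1* and *Gad2*, which make GABA, had log2 fold changes of −0.04 (95% CI −0.19 to 0.12) and −0.10 (95% CI −0.31 to 0.10), and *Slc32a1*, the vesicular transporter, −0.08 (95% CI −0.20 to 0.04). Without female mutant 3 the folds of these 3 genes were −0.14, −0.09 and −0.05. *Gad1* had 89.0 to 124 CPM in controls and 102 to 115 CPM in mutants, inside the controls' range. The GABA-degrading enzyme *Abat* had −0.10, and the glycine transporter *Slc6a5*, a marker of caudal inhibitory neurons, −0.09 with 11.9 to 29.5 CPM in controls. Of these 7 genes of GABA and glycine transmission 0 passed the test (all genes tested: 0.0173%). The same count was 0 for 11 genes of midbrain GABAergic fate, such as *Gata2* (−0.09), *Gata3* (−0.08), *Tal1* (0.01) and *Tal2* (0.08), and for 16 genes of cerebellar and hindbrain inhibitory lineages, among them *Pax2* (−0.07) and *Lhx1* (−0.03). The medians of these 3 lists were −0.09, −0.02 and −0.07 in the 8 libraries and −0.12, 0.11 and 0.05 without female mutant 3, so that the last 2 changed sign. *Tal2* was at 0.45 without that library (unadjusted p = 0.0116, edgeR adjusted p = 1).

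In the 14 midbrain transcription factors 0 genes passed, and *Foxb1* and *Dmbx1* were the 2 whose groups did not overlap (all genes tested: 0.0173% called and 1.61% not overlapping), both named after their values were seen. The list's median was −0.02, and 0.11 without female mutant 3. *Dmbx1* (chromosome 4, 115915119 to 115939926, reverse strand), a homeobox gene of the dorsal midbrain and hindbrain, had 20.1, 20.5 and 16.3 CPM in male controls 1, 2 and 3 and 26.0 and 20.4 CPM in female controls 2 and 3. The mutants had 31.4 and 35.5 CPM in males 1 and 3 and 29.7 CPM in female 3, each above every control. Its log2 fold change was 0.64 (95% CI 0.37 to 0.92, unadjusted p = 0.00056, edgeR adjusted p = 0.972), and 0.80 without female mutant 3 (edgeR adjusted p = 0.278). It passed the thresholds in 10 of 24 alternatives, among them the likelihood ratio test (adjusted p = 0.00999), DESeq2 (adjusted p = 0.00174) and the fit of all 12 DMH libraries with *Hox* class (0.63, edgeR adjusted p = 0.114). *Foxb1* (chromosome 9, 69757710 to 69760940, reverse strand), a forkhead gene of the posterior diencephalon and midbrain, had 18.9, 22.2, 16.8, 19.9 and 19.9 CPM in the controls in the same order and 13.98, 13.74 and 9.57 CPM in the mutants. Every mutant was below every control, and female mutant 3 was the lowest (log2 fold change −0.69, 95% CI −0.96 to −0.41, unadjusted p = 0.000281, edgeR adjusted p = 0.697). Without female mutant 3 the fold was −0.49, and with all 12 DMH libraries and the *Hox* class it was −0.73 and passed (edgeR adjusted p = 0.0294), which happened in 4 of 24 alternatives. *B230323A14Rik*, a transcript on the other strand that overlaps *Foxb1* by 2201 bases, had −0.64 (edgeR adjusted p = 0.476) and passed in 5 of 24 alternatives. The libraries keep strand, so the 2 genes were counted apart. The most abundant members, *Meis2* (0.04), *Pou4f1* (−0.05), *Otx2* (0.25) and *Lef1* (−0.09), did not pass. *Otx2* had a fold of 0.47 without female mutant 3 with an edgeR adjusted p of 0.159, inside the threshold on the fold.

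Over all 15 lists of neuronal and regional identity together, 3 of 145 genes tested were downregulated and 0 upregulated, where the share over all genes was 0.0173%. The lists include the targeted *Tfap2b* and were chosen with earlier results of these data known, so the shares here are no test. The groups did not overlap in 7 of the 145 (all genes tested: 1.61%): *Tfap2b*, *Dbh*, *Slc6a2*, *Foxb1* and *Slc10a4* below the controls and *Dmbx1* and *Maob* above them. *Slc10a4*, a vesicular transporter of cholinergic and aminergic neurons, had 13.4, 14.1, 14.99, 14.2 and 14.6 CPM in the controls and 11.3, 11.3 and 11.8 CPM in the mutants, a small and even difference (log2 fold change −0.32, unadjusted p = 0.000968, edgeR adjusted p = 1, and −0.35 without female mutant 3). *Maob*, which breaks down monoamines, had 2.15 to 2.56 CPM in controls and 2.58 to 3.34 CPM in mutants (0.32, unadjusted p = 0.0334, edgeR adjusted p = 1, and 0.40 without female mutant 3). The remaining lists held no call. Serotonergic neurons of the raphe were measured by 8 genes with a median of −0.06 (−0.04 without female mutant 3), among them *Lmx1b* (−0.13) and *Slc6a4* (−0.03). The 10 dopaminergic genes had a median of −0.01 (0.06 without that library), with *Nr4a2* at 0.01 and *Foxa1* at −0.10, and the 9 cholinergic and motor genes a median of 0.02 (−0.04 without it), with *Isl1* at −0.17 and *Prph* at 0.26. The 9 rhombic lip genes had a median of −0.10 (0.03 without it), with *Zic1* at −0.13 and *Meis1* at −0.04, and the 3 vesicular glutamate transporters one of −0.02 (−0.03 without it), with *Slc17a6* at −0.02. The medians of 14 neuropeptide genes tested, 10 progenitor genes, 8 proliferation genes and 7 genes of thalamus and pretectum were −0.01, −0.03, −0.06 and −0.05 in the 8 libraries, and −0.08, 0.03, −0.08 and 0.19 without female mutant 3. The medians of the dopaminergic, cholinergic and motor, rhombic lip, progenitor and thalamus and pretectum lists thus changed sign with that 1 library, and no direction is read from them. Examples in the 8 libraries are *Sst* (0.02), *Vim* (−0.02), *Mki67* (−0.05) and *Lhx9* (−0.06).

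**Figure D4:**
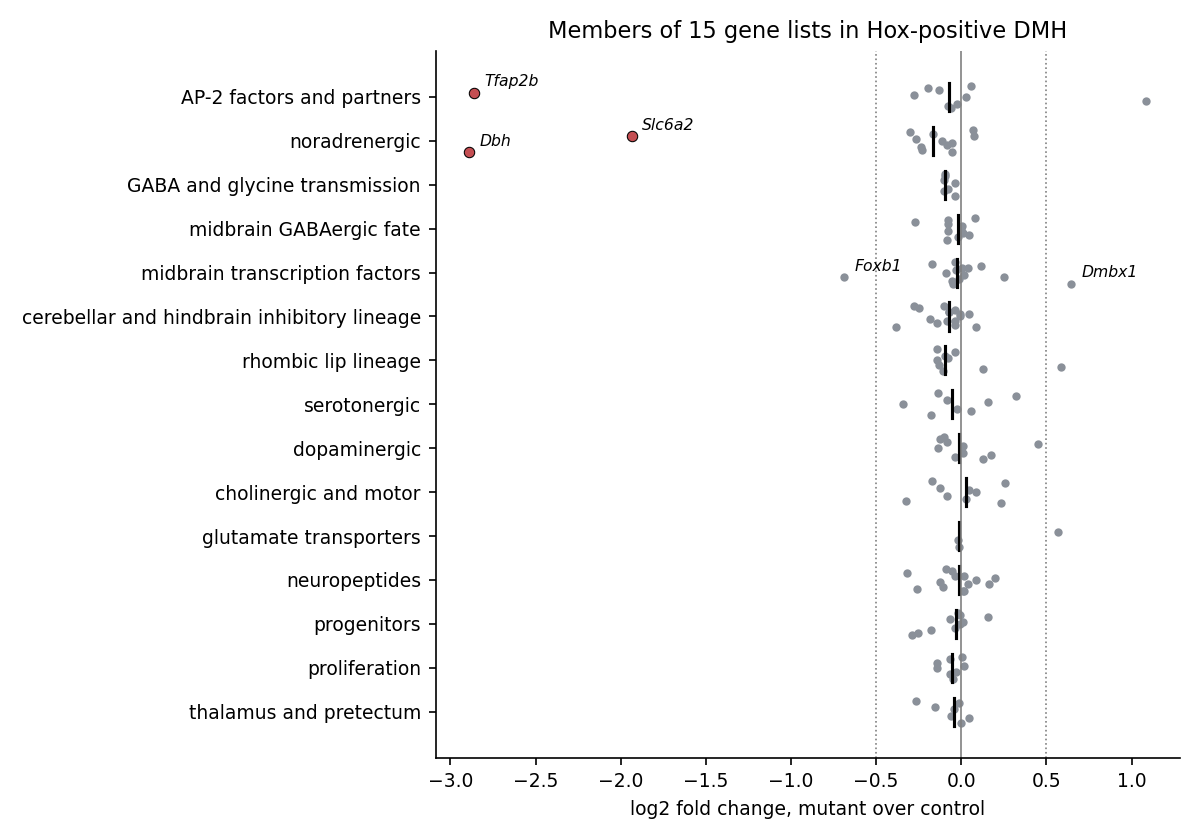
Log2 fold change (mutant over control) of each member of 15 gene lists in the 8 libraries, with a black line at the list's median and dotted lines at the fold threshold. The 3 genes called (red) are *Tfap2b*, *Dbh* and *Slc6a2*, and all medians lie between −0.17 and 0.02.

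Some of the genes that the study singled out were followed in these 8 libraries too, namely 7 transport genes, 6 forebrain and glial genes and *Pax8*. The study also singled out *Hox* genes, which include those of the rule and are described above. The transport and the forebrain and glial genes came from a comparison of female DMH that shares female controls 2 and 3 with this one but none of its mutants. With controls in common they are not independent evidence of a direction. Of the 7 transport genes 1 was downregulated, *Slc6a2* (over all genes tested, 0.0173%), and the median was −0.12 (−0.11 without female mutant 3). *Aqp1*, a water channel of the choroid plexus, was at 15.45, 16.05 and 23.6 CPM in male mutants 1 and 3 and female mutant 3 and at 12.4 to 17.1 CPM in controls (0.32, unadjusted p = 0.0393, edgeR adjusted p = 1), and its fold was 0.15 without female mutant 3 (unadjusted p = 0.304). Female mutant 3 had the most *Aqp1* but the lowest sum of choroid plexus genes among the 8 libraries (217 CPM). Of *Dlx2*, *Dlx5*, *Nr2e1*, *Sox1*, *Hmga2* and *Tmem98* 0 passed, with folds between −0.74 and 0.16 and a median of −0.27 (−0.16 without female mutant 3). *Pax8*, a midbrain-hindbrain and spinal factor, had 11.1 to 15.4 CPM in controls and 11.31, 14.53 and 12.41 CPM in male mutants 1 and 3 and female mutant 3 (−0.08).

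The fourth smallest p belonged to *Hjurp* (chromosome 1, 88262471 to 88277633, reverse strand), the chaperone of the centromeric histone CENP-A, which lies 69.1 Mb from *Tfap2b*. It had 97.6, 109.9 and 121.7 CPM in male controls 1, 2 and 3, 79.1 and 103.5 CPM in female controls 2 and 3, and 46.0, 48.7 and 52.0 CPM in male mutants 1 and 3 and female mutant 3. The mutants had 47.8% of the control level, with no overlap (log2 fold change −1.08, 95% CI −1.38 to −0.77, edgeR adjusted p = 0.214), and the fold was −1.24 without female mutant 3 (edgeR adjusted p = 0.132). In SP of the same embryos it was 147 to 184 CPM in controls and 71.7 to 99.5 CPM in mutants (−0.95, edgeR adjusted p = 0.292). *Hjurp* was past the thresholds in 13 of 24 alternatives in the DMH. The libraries below the *Hox* threshold did not separate, with 75.4 CPM in the control and 57.1 to 84.2 CPM in the mutants.

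Genes near *Tfap2b* on chromosome 1 held many of the small p-values. Of 152 genes tested whose start was within 20 Mb of the start of *Tfap2b*, itself left out, 24 (15.8%) had an unadjusted p under 0.05, against 26 of 909 (2.86%) on the rest of chromosome 1 and 389 of 16297 (2.39%) on other chromosomes. The groups did not overlap in 10 of the 152 (6.58%), against 1.76% on the rest of the chromosome and 1.55% on the others, and 0 of them passed the thresholds over all genes. Without female mutant 3 the share with a p under 0.05 was 12.6% (19 of 151), against 1.65% and 1.45% on the rest of chromosome 1 and on other chromosomes, and the share without overlap 9.27%, against 4.74% and 4.19%. In SP of the same embryos 15.3% (22 of 144) had a p under 0.05, against 4.69% on the rest of chromosome 1 and 5.27% on other chromosomes, so small p-values were more frequent there over all genes than in the DMH. Gene counts do not show whether the sequence around the targeted locus differs between the mutant and control embryos, and its part in these differences was not tested. Of the 20 genes with the smallest p, 6 lay in this interval besides *Tfap2b*, and they are named after their values were seen. *Mcmdc2*, a meiotic recombination gene, had 7 to 39 counts in controls and 4, 0 and 5 counts in mutants (log2 fold change −3.51, edgeR adjusted p = 0.425). It passed the thresholds in 8 of 21 alternatives. *Adhfe1* had a fold of −0.85, *Cnga3* one of −1.50 and *Rrs1* one of −0.28. *Terf1*, a telomere protein, and *Lactb2* were higher, at 0.49 and 0.55.

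**Figure D5:**
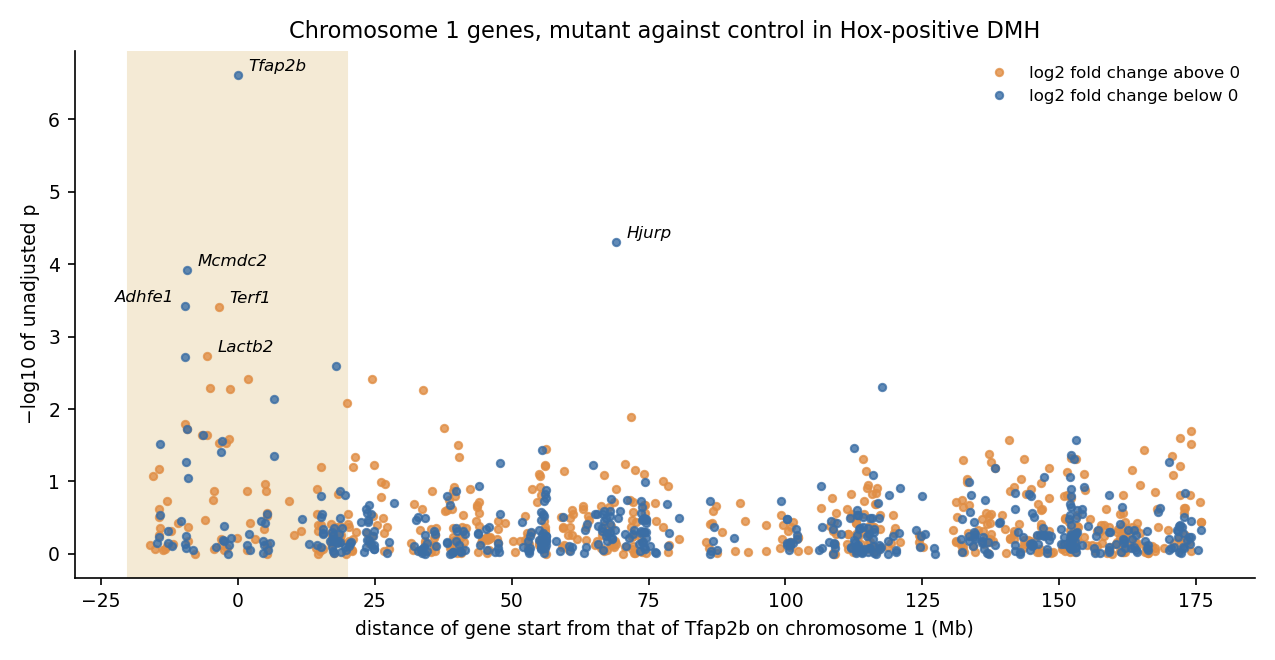
Unadjusted p (as −log10, vertical axis) of each chromosome 1 gene tested in the 8 libraries against the distance of its start from that of *Tfap2b* (in Mb, horizontal axis). Orange points have a log2 fold change above 0 and blue points one below 0, and the shaded band spans 20 Mb on either side, where 24 of 152 genes other than *Tfap2b* have a p under 0.05.

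The promoter window of *Dbh* is shown because *Dbh* was the gene with the smallest p and AP-2 factors bind GC-rich palindromes. The window is chr2:27165257-27165556 of GRCm38.p6 (RefSeq), forward strand, 250 bases before the RefSeq start site and 50 after it. That start site lies downstream of the gene start in the annotation of the counts, so the whole window falls inside the *Dbh* span given above. Capitals mark a match to the pattern GCCNNNNGGC. As a pattern it is the same on both strands, so 1 search covers both, although the 4 bases between its ends need not be. The match starts 129 bases before the RefSeq start site.
Dbh: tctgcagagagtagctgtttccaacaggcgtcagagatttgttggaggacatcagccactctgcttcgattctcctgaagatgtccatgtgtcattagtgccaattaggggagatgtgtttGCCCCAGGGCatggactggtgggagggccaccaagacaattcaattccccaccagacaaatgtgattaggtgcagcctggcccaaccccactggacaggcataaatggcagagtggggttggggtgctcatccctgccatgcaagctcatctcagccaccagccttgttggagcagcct
The shorter form GCCNNNGGC had no match in the windows of *Dbh*, *Tfap2b*, *Hjurp* or *Dmbx1*, and GCCNNNNGGC none in the last 3. Among 32851 promoter windows, 16.6% hold GCCNNNGGC, 14.8% hold GCCNNNNGGC and 27.0% hold either, and the 4-base spacer was added to the search after the data were seen. No window of *Slc6a2* or *Foxb1* was used here. A match is a description of these letters and not a binding site.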

How the data were processed

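The authors made stranded (dUTP) libraries from polyadenylated RNA and deposited, per library, the raw count of read pairs that STAR assigned to each gene. The submitters' processing notes name cutadapt 2.4, STAR 2.6.1d, edgeR and the builds mm10 and GRCm38.p6. Lines that name no gene (18.8 to 21.0% of fragments) were left out. The counts of the strand that dUTP libraries read were used, with the unstranded counts as an alternative, and 1 count column per table, for the opposite strand, was not used. Of 54446 identifiers 54409 matched GENCODE vM21.

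The 8 libraries were fitted with edgeR 4.0.16 in R 4.3.3 (TMM, filterByExpr, robust quasi-likelihood test) with labelled sex as a term, with Benjamini-Hochberg adjustment over every gene tested. The CPM are TMM-normalized over 24 libraries, except those of the rule, which use the library's total count on genes. DESeq2 1.42.0 and the likelihood ratio test were alternatives. Labels do not say that replicates are more than separate embryos of a group. No pair of libraries of 1 genotype was a copy of another (chi-square per gene at least 9.23 over 13 pairs, genes with at least 50 counts).

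The fits were tested on simulated data. Members, lists and tests were chosen with earlier results of these data known. Named genes are *Tfap2b*, up to 15 genes a direction past the thresholds, list members past them, *Gad1*, *Gad2*, *Slc32a1*, *Th* and *Phox2a*, up to 4 more of each list by mean CPM and the *Hox* genes of the rule. Others are said to be named after their values were seen, or belong to a list described in full. Some list members count in their list but are not reported here by name. Promoter windows are from RefSeq. Figures were drawn with matplotlib.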

Additional observations from a re-analysis of the deposited data

Results flagged for a closer look

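In the test of the difference between DMH and SP effects, with the embryo as a block, 4 genes passed. *Tfap2b* had a log2 difference of −2.70 (edgeR adjusted p = 0.00341), between −2.87 and −2.43 when single embryos were left out, and was called each time. *Vxn*, within 20 Mb of *Tfap2b*, had −1.14 (edgeR adjusted p = 0.0623): its log2 fold change was 0.31 in the DMH and 1.405 in SP, with 62.0 to 79.4 CPM in SP mutants and 17.8 to 34.8 CPM in SP controls. Without female mutant 3 the difference was −1.18 (edgeR adjusted p = 0.362), and *Vxn* was called in 5 of the 8 fits that left out 1 embryo. *Oaf* had 1.40 and *Col8a2* had 2.61 (edgeR adjusted p = 0.0623 each). In the DMH these 2 were high in female mutant 3, with 10.5 CPM of *Oaf* and 49.9 CPM of *Col8a2* against 3.78 to 5.42 and 13.9 to 16.1 CPM in the other 7 libraries. Without it the differences were 1.39 (edgeR adjusted p = 0.362) and 3.06 (edgeR adjusted p = 0.188), and in SP male mutants 1 and 3 had 1.19 and 0.592 CPM of *Col8a2* against 5.27 to 9.61 CPM in controls. With single embryos left out, *Oaf* was called in 3 and *Col8a2* in 4 of 8 fits.

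One control library stood far from the other 4 in 3 genes. *Mcmdc2* was at 0.212 CPM in female control 2, *Skor2* at 11.9 CPM in male control 3, where the other controls had 15.1 to 16.2 CPM, and *Hoxb5* at 63.0 CPM in male control 3. Chance flags about 1 in 20 groups, and 89 genes were looked at.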

How the results depend on the processing

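*Tfap2b* and *Dbh* passed the thresholds in all 24 alternatives and *Slc6a2* in 23, with the exception given in the report. Of 68 named genes, 5 passed in alternatives but not in the reported fit, and none reversed a call. Still, 56 of them had a result flagged as moved from the reported fit in at least 1 alternative. Over all named genes and alternatives, 216 results were flagged as moved and 1372 as the same. The 3 downregulated genes became 7 with no filter on low counts, 8 with the likelihood ratio test, 9 with DESeq2 and 6 with male libraries alone. Leaving out 1 library gave 3 to 5 (5 without female control 2), and leaving out both female control 2 and female mutant 3 gave 6. Without female mutant 3 the likelihood ratio test gave 8 and DESeq2 gave 5. Against 0 upregulated genes there were 45 with no filter on low counts, 4 with the likelihood ratio test, 1 with DESeq2, 1 with males alone, and 1 with all 12 DMH libraries with or without the *Hox* class. Leaving out 1 library gave 0 to 2 (2 without male mutant 1, 1 without female control 2), and without female control 2 and female mutant 3 there was 1. Without female mutant 3 the likelihood ratio test gave 5 and DESeq2 gave 1. The 3 calls on the gene lists became 5 with no filter, 5 with the likelihood ratio test and 5 with DESeq2. In SP the count of 0 became 428 with no filter and 61 with the likelihood ratio test, and ranged from 0 to 1305 with 1 embryo left out (1305 without male mutant 3, 2 without male mutant 1, 2 without female control 2). The 4 genes with a region difference became 102 with no filter and 287 with the likelihood ratio test, and ranged from 1 to 327 with 1 embryo left out (327 without male mutant 1, 139 without male mutant 3, 8 without male control 1). The cause of these shifts was not tested. Replicate numbers did not pair the samples: deviations from the group means correlated by 0.040, −0.015 and 0.156 between same-numbered mutants and controls, and not every sample correlated best with its own number. With a replicate block there were 5 downregulated genes in the DMH and 1 DE gene in SP, and with no replicate block for the embryo in the region test there was 1. With sex taken from Y-linked transcripts, 4 genes were downregulated and 0 upregulated in the DMH. Between 15 and 29 counts of *Dbh* per mutant limit the precision of its residual level.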
